A study of Mus musculus with 3 samples.

Results

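The thalamus spots were the capture spots that the deposited spot table assigned to TH, and they numbered 1710 of the 8549 spots retained over 3 brain sections. The control section (CON) held 617 of them, the resilient section (RES) 561 and the susceptible section (SUS) 532. Each section was a 10 μm coronal slice of the left hemisphere of a male C57BL/6J mouse aged 8 weeks, placed on a Visium slide, on which barcoded spots record the position of captured mRNA. The RES and SUS mice had gone through chronic social defeat stress (CSDS) for 10 days, that is, daily attacks by a larger CD-1 male followed by housing behind a transparent divider, whereas the CON mouse had met non-aggressive C57BL/6 mice on the same schedule. A social interaction ratio, the time near an unfamiliar mouse over the time near the empty cage, above 1 defined RES and a ratio below 1 defined SUS, and tissue was taken 1.5 h after the last exposure. Each condition was represented by 1 section, so that condition, animal, slide area, plane of cutting and library cannot be told apart, and no test between conditions was possible.

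The thalamus is the relay through which most sensory and much motor information reaches the cortex. Its lateral and ventral nuclei carry touch, movement, vision and hearing, while the nuclei close to the midline, among them the paraventricular nucleus, and the habenula, which adjoins them beside the ventricle, are known for their part in arousal, aversion and stress. Thalamic relay nuclei are mostly made of excitatory projection neurons crossed by many myelinated fibres, and mitochondrial transcripts are abundant in neurons.

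Each spot was described by 6 quantities. They were the number of unique molecular identifiers (UMIs, each standing for 1 captured transcript), the number of genes detected by at least 1 UMI, that number in spots of like depth (10000 to 15000 UMIs), and the percentages of transcripts from mitochondrial genes, from ribosomal protein genes and from red blood cell genes. Whether the UMI and gene numbers include mitochondrial and red blood cell genes is not given in the sources used here, and what part this has in the relations between these numbers and the percentages was not tested. The table gave these totals per spot and no count per gene, so the TH label could not be checked against Prkcd, the gene by which the study marks thalamus, and no gene is named here with a value. The position of the spots could be checked. TH spots touched spots labelled hippocampus (HIP) on their dorsal side, hypothalamus (HY) on their ventral side, fibre bundles (FB) on their lateral side and the ventricle label D3V at their dorsomedial corner, in all 3 sections. Fewer cells under a spot and less RNA per cell cannot be told apart in these totals.

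The TH spots of CON, RES and SUS together held 6938471, 6158691 and 7204422 UMIs, which was 18.5%, 19.7% and 20.6% of all UMIs of the retained spots of the section. Every TH spot lay under tissue, and the region spanned 2550, 2600 and 2500 µm from medial to lateral and 2685, 2338 and 2165 µm from dorsal to ventral in CON, RES and SUS. Tissue went on beyond the medial side of the table, with 361 to 383 tissue-covered slide places in the same rows that the table did not list, so that "medial" below means the medial limit of the retained spots. Visium slides use the same barcodes at the same places. Of the TH barcodes, 500 were shared by CON and RES, 351 by CON and SUS, 393 by RES and SUS and 341 by all 3 sections.

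Thalamus was the region with the highest mitochondrial percentage in CON and RES and the next highest of 7 after HY in SUS, and this percentage was lower in both stressed sections than in CON. Mitochondrial transcripts made up 12.9% of the median TH spot of CON (95% interval of the median over spots 12.6 to 13.1). The median was 11.8% for RES (11.5 to 12.0) and 10.7% for SUS (10.5 to 10.8). These intervals did not overlap. The differences were -1.10 percentage points for RES against CON (-1.57 to -0.642), -2.21 for SUS against CON (-2.60 to -1.77) and -1.11 for SUS against RES (-1.48 to -0.670). Such intervals cover the spread over spots of 1 section and say nothing of the spread between animals. They also treat spots as independent, although adjacent TH spots were alike in mitochondrial percentage. Spearman's rho between a spot and the mean of its neighbours was 0.527 in CON, 0.656 in RES and 0.680 in SUS. The intervals here and below may therefore be too narrow even within a section. Spots above 15% mitochondrial transcripts made up 19.4% of TH in CON (120 of 617, exact binomial 95% interval 16.4 to 22.8), 8.56% in RES (48 of 561, 6.38 to 11.2) and 2.44% in SUS (13 of 532, 1.31 to 4.14). The fall was not particular to thalamus. SUS minus CON was -3.92 percentage points for the cortex (Isocortex), -3.36 for HIP, -3.02 for the cerebral nuclei (CNU), -2.76 for the olfactory area (OLF) and -2.44 for the amygdala with cortical subplate (AMY), each a larger difference than in TH. RES minus CON was -1.94, -1.05, -0.825, -0.756 and -0.307 in the same regions. Among spots of 10000 to 15000 UMIs the TH medians were 13.0%, 11.4% and 10.8%, so the order was the same at like depth.

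Depth in TH was close to control in RES and higher in SUS. The median TH spot of CON had 11080 UMIs (10725 to 11369), with a range over spots of 408 to 26793. That of RES had 10515 (10078 to 10891), ranging from 1645 to 33476, and that of SUS 12519 (12053 to 12900), ranging from 3684 to 50522. RES over CON was 0.949 (0.886 to 1.02), an interval that includes 1, and SUS over CON was 1.13 (1.06 to 1.20). In the 6 other regions the same ratios ran from 0.354 to 0.887 for RES and from 0.568 to 0.956 for SUS, so that TH was the 1 region of 7 whose SUS median lay above CON. The low end of the distribution differed more than the middle, since 43 TH spots (6.97%, 5.09 to 9.27) had under 5000 UMIs in CON, 27 (4.81%, 3.20 to 6.93) in RES and 3 (0.564%, 0.116 to 1.64) in SUS. Divided by the section's own median over all spots, the TH ratio to CON became 1.22 in RES and 1.33 in SUS.

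The number of genes followed the number of UMIs closely, with Spearman's rho over spots of 0.995, 0.987 and 0.987 (n = 617, 561 and 532, described without a test since spots of a section share a library). The median TH spot had 4302 genes (4225 to 4389) for CON, 4213 (4136 to 4302) for RES and 4673.5 (4598 to 4742) for SUS. Between 10000 and 15000 UMIs the medians were 4501.5 in CON (262 spots), 4576 in RES (248 spots) and 4629 in SUS (259 spots), giving ratios to CON of 1.02 (0.991 to 1.04) and 1.03 (1.01 to 1.05). Between 8000 and 12000 UMIs these ratios were 0.9902 and 1.004. The window of 10000 to 15000 UMIs still held slightly deeper spots in SUS, at a median of 12223 UMIs against 11824 in CON. In bins of 1000 UMIs from 6000 to 18000, the mean of the bin medians over that of CON was 1.006 in RES and 1.005 in SUS, with a higher median than CON in 8 of 12 bins in either section. At like depth the 3 sections therefore gave TH spots gene numbers within 1% of each other on average. In Isocortex the same bins gave RES above CON in 0 of 11 and SUS above CON in 1 of 11.

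Ribosomal protein transcripts were lower in the stressed sections, with medians of 6.47% for RES (6.35 to 6.62) and 6.87% for SUS (6.72 to 6.99) against 7.20% for CON (7.10 to 7.32). The differences from CON were -0.732 percentage points (-0.969 to -0.480) for RES and -0.336 (-0.596 to -0.111) for SUS, and SUS lay above RES by 0.396 (0.104 to 0.638). This was not particular to thalamus. In each stressed section 4 of the 6 other regions had a lower median than CON and 2 had a higher one. RES and SUS differed from CON by -0.469 and -0.519 in HY. In CNU the differences were -0.768 and -0.277, the latter with an interval that included 0 (-0.554 to 0.158).

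Red blood cell transcripts, mostly globin mRNA carried by blood in vessels or spilled over the tissue, rose from section to section in TH by far more than any other quantity. The median TH spot of CON had 0.0170%, that of RES 0.0718% and that of SUS 0.290%, or 4.21 and 17.0 times CON. These ratios rest on a CON median close to 0. The means over TH spots were 0.0811% in CON, 0.179% in RES and 0.835% in SUS. The rise was not particular to thalamus. In the 6 other regions the RES median was 3.79 to 8.53 times and the SUS median 12.4 to 23.5 times that of CON. No red blood cell transcript was listed in 111 of 617 TH spots in CON (18.0%), in 3 of 561 in RES and in 0 of 532 in SUS (which allows a share of up to 0.691% by the exact binomial interval, counting error only). More than 1% was reached by 10 TH spots of CON (1.62%), by 16 of RES (2.85%) and by 107 of SUS (20.1%). In SUS the share of such spots was between 9.05% and 22.3% in the other regions. Whether blood RNA had a part in the other section differences of TH was not tested.

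Thalamus was then set against HY, the brain region ventral to it, and against 5 forebrain regions, namely Isocortex, HIP, AMY, OLF and CNU, the last being striatum and pallidum. The median mitochondrial percentage of TH was above that of all 5 forebrain regions in 3 of 3 sections. TH exceeded Isocortex by 2.01, 2.85 and 3.72 percentage points in CON, RES and SUS (mean 2.86 ± 0.854, SD, n = 3), HIP by 1.86, 1.81 and 3.01 (2.22 ± 0.677), AMY by 4.60, 3.81 and 4.83 (4.41 ± 0.537), OLF by 3.97, 3.63 and 4.53 (4.04 ± 0.453) and CNU by 2.54, 2.27 and 3.35 (2.72 ± 0.562). In each of these pairs the mean difference was more than 3 times the SD over sections. With 3 sections the two-sided exact sign-flip permutation test cannot give a p below 0.25, and each of these pairs gave 0.25 (adjusted p = 0.6 over 36 comparisons by the Benjamini-Hochberg method). At 10000 to 15000 UMIs TH also lay above all 5 in each section. With means over spots in place of medians, TH minus OLF became 2.16, -0.0222 and -0.388 percentage points (mean 0.585), while TH stayed above the other 4 regions in each section.

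The difference from HY was not stable over sections. The median mitochondrial percentage of HY was 9.32% in CON, 10.5% in RES and 11.1% in SUS, while that of TH fell over the same sections. TH minus HY was 3.54, 1.22 and -0.462 percentage points, a mean of 1.43 ± 2.01 whose SD was larger than itself (exact sign-flip permutation p = 0.5, adjusted p = 0.75). Over all spots HY was the only 1 of the 6 regions whose median was higher in RES and SUS than in CON. At 10000 to 15000 UMIs the HY medians were 10.5%, 10.4% and 12.0% in the same order, so the higher value of RES was not present at like depth. HY spots had a median of 15928.5 UMIs for CON, 11022 for RES and 15228.5 for SUS.

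Ribosomal protein transcripts were lower in TH than in HY in each section. TH minus HY was -3.26, -3.52 and -3.08 percentage points (-3.29 ± 0.224), TH minus CNU -1.26, -1.22 and -1.31 (-1.26 ± 0.0479) and TH minus HIP -0.021, -0.941 and -1.06 (-0.673 ± 0.567). Each was negative in 3 of 3 sections, with p = 0.25, the smallest that the exact sign-flip permutation test can give here. For HIP this rested on a small difference in CON, which was 0.204 with means over spots. Against Isocortex, AMY and OLF the sign differed between sections. TH ranked 4th of 7 in CON, 7th in RES and 6th in SUS on this percentage.

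The UMIs of a TH spot were below those of an Isocortex spot in each section, at 0.672, 0.719 and 0.847 times, and below those of HY, at 0.696, 0.954 and 0.822 times. Against HIP the ratios were 0.962, 1.04 and 1.14, against AMY 0.857, 1.29 and 1.68, against OLF 0.707, 1.90 and 1.41 and against CNU 0.908, 1.30 and 1.70. TH had thus the fewest UMIs of the 7 regions in CON, and only Isocortex and HY had more in RES and SUS. For genes at like depth, TH to Isocortex was 0.933, 0.969 and 0.987, below 1 in 3 of 3 sections, while the other 5 ratios fell on both sides of 1. With equal weight for each bin of 1000 UMIs, TH was below Isocortex, AMY, OLF and CNU and above HY in 3 of 3 sections, by mean log2 ratios of -0.02, -0.03, -0.03, -0.02 and 0.03, so the comparison with AMY, OLF and CNU depended on how depth was matched.

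**Figure D1:**
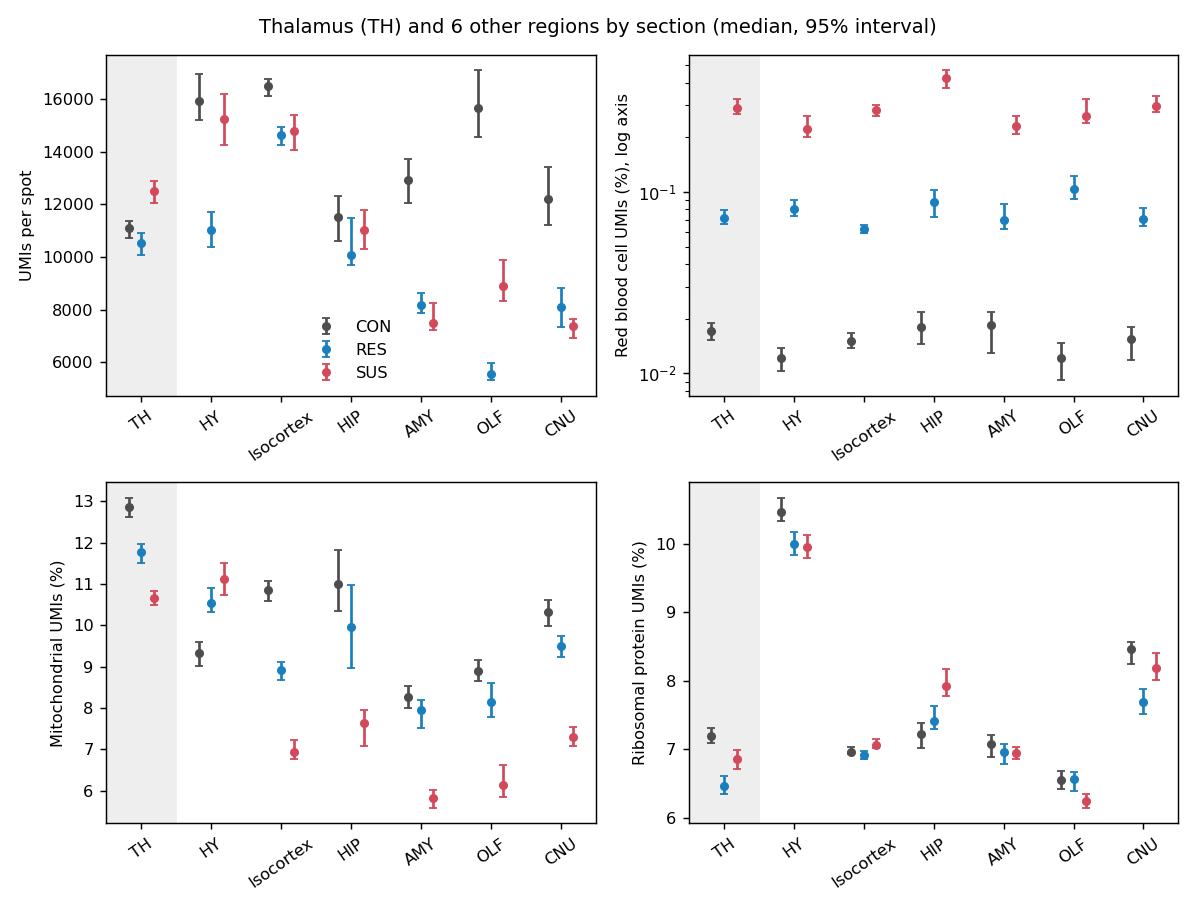
Median of the thalamus (TH, grey band) and 6 other regions in the 3 sections, with 95% intervals over spots, for UMIs per spot, red blood cell transcripts (percent, log axis), mitochondrial transcripts (percent) and ribosomal protein transcripts (percent). TH is highest in mitochondrial percentage at 12.9% in CON and 11.8% in RES, HY passes it in SUS at 11.1% against 10.7%, and the red blood cell percentage climbs from CON to SUS in every region.

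Within the thalamus, depth fell from the medial to the lateral side in all 3 sections. TH spots were ranked by distance from the medial-most TH spot and divided into 5 bins of equal number. The medial bin, reaching to 400 µm in CON and 450 µm in RES and SUS, had medians of 14696, 11832 and 16115 UMIs in the order CON, RES, SUS. The lateral bin, from 1750 µm in CON and 1800 µm in RES and SUS, had 8031, 8344 and 11443.5. Lateral over medial was 0.546 (0.461 to 0.683), 0.705 (0.604 to 0.842) and 0.710 (0.588 to 0.853) in the same order, and was below 1 in 3 of 3 sections (mean log2 ratio -0.62 ± 0.22, SD, n = 3, exact sign-flip permutation p = 0.25, adjusted p = 0.375 over 6 quantities). The path between the ends differed between sections. In CON the median fell to 11447 after the medial bin, was 11546 in the middle bin and then fell to 9862 and 8031. In RES it stayed between 10523.5 and 11033 over the 3 middle bins and fell in the lateral bin. In SUS the 4 bins after the medial one lay between 11439 and 12384.5.

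Genes per spot fell with depth, to 0.693, 0.781 and 0.801 of the medial value. At 10000 to 15000 UMIs the lateral bin still had fewer genes than the medial bin, with ratios of 0.935, 0.923 and 0.953 (mean log2 ratio -0.09 ± 0.02, p = 0.25 by the same exact permutation test), on 27, 31 and 42 lateral and 51, 44 and 30 medial spots. The intervals over spots were 0.873 to 1.004, 0.873 to 0.997 and 0.900 to 1.006, so those of CON and SUS included 1. With equal weight for each bin of 1000 UMIs the log2 ratios were smaller, at -0.04, -0.06 and -0.02, and of the same sign. Among the dorsal spots at 10000 to 15000 UMIs the log2 ratio was 0.026 in SUS, on 5 medial spots, and negative in CON and RES.

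The mitochondrial percentage ran the opposite way in CON and RES, where the medial bin was lowest. It was 10.2% in the medial bin of CON, rose to 13.0%, 13.7% and 13.8% in the next bins and was 12.6% in the lateral bin. In RES it went from 9.68% through 12.0%, 12.2% and 12.7% to 12.0%. In SUS the sequence was 10.5%, 11.2%, 11.0%, 10.7% and 9.68%, so the lateral bin was the lowest. Lateral minus medial was 2.39 percentage points for CON (1.50 to 3.43), 2.35 for RES (1.38 to 3.21) and -0.835 for SUS (-1.999 to 0.387), and the exact permutation test over sections gave p = 0.5. The course of SUS was not the same from dorsal to ventral. Among its dorsal spots the medians were 8.50%, 9.89%, 9.98%, 10.05% and 9.24%, with the medial bin lowest, and lateral minus medial was 0.741 percentage points dorsally and -1.74 ventrally. Taken bin by bin, SUS and CON had similar medial medians, at 10.5% and 10.2%, and SUS lay below CON by more in the outer bins, at 10.7% against 13.8% in the bin before the lateral one and 9.68% against 12.6% in the lateral bin. The section medians lay between 9.68% and 10.5% in the medial bin and farther apart in each of the other 4 bins. UMIs and mitochondrial percentage were inversely related over spots in each section (rho -0.433, -0.505 and -0.439), and at 10000 to 15000 UMIs the lateral minus medial difference was 1.35, 0.911 and -2.67 percentage points.

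Ribosomal protein transcripts were highest at the medial side and again at the lateral side, with a trough between. The medians in CON were 7.71%, 7.24%, 6.996%, 6.80% and 7.44% from medial to lateral, in RES 7.46%, 6.41%, 6.00%, 6.17% and 6.86%, and in SUS 7.73%, 6.75%, 6.37%, 6.51% and 7.26%. The difference between the end bins was small, at -0.272, -0.600 and -0.474 percentage points, with intervals that included 0 in each section. It had opposite signs in the dorsal and the ventral spots, at -1.23, -1.33 and -0.978 dorsally and 0.574, 1.23 and 0.733 ventrally. Red blood cell transcripts had no common course, at a lateral minus medial difference of 0.000757, -0.0199 and 0.0846 percentage points.

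**Figure D2:**
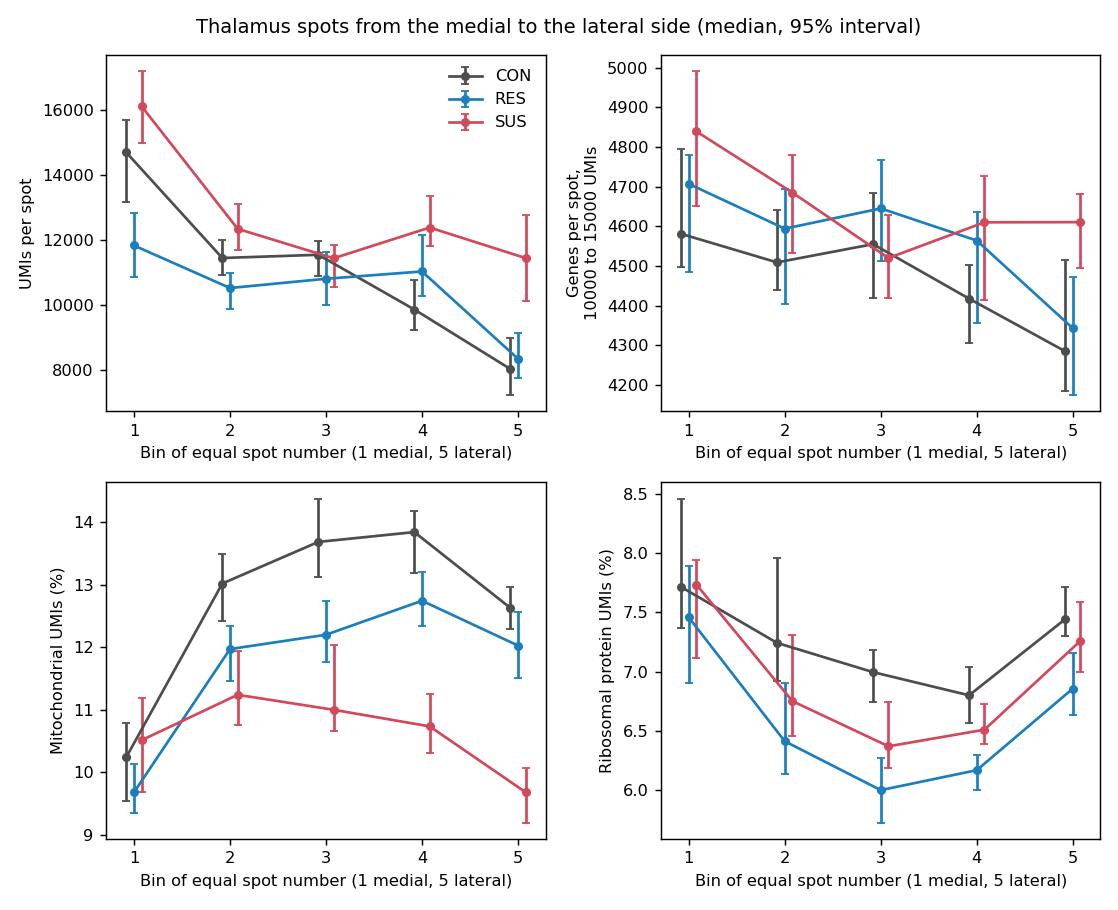
Medians with 95% intervals over spots in 5 bins of equal spot number from the medial (1) to the lateral (5) side of the thalamus, for UMIs per spot, genes per spot at 10000 to 15000 UMIs, and the mitochondrial and ribosomal protein percentages, in CON, RES and SUS. UMIs fall to 0.546, 0.705 and 0.710 of the medial value, the mitochondrial percentage rises from the medial bin in CON and RES while SUS ends at 9.68%, and the ribosomal protein percentage dips in the middle in each section.

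A comparison from the dorsal to the ventral end, added after the data were seen, showed where the mitochondrial percentage of SUS changed. In 5 bins of equal number it was 9.34%, 10.1%, 10.4%, 12.0% and 11.8% in SUS, a ventral minus dorsal difference of 2.45 percentage points (1.73 to 3.41), with rho of 0.510 over 532 spots. In RES the bins were 11.2%, 11.2%, 11.7%, 12.7% and 11.9% (difference 0.708, -0.307 to 2.61, rho 0.259). In CON they were 12.7%, 12.8%, 13.3%, 13.1% and 11.6% (difference -1.15, -2.39 to 0.00262, rho -0.0357). The 3 sections were thus apart at the dorsal end, at 12.7%, 11.2% and 9.34%, and close at the ventral end, at 11.6%, 11.9% and 11.8%. UMIs fell toward the ventral end in RES, from 11845 to 8405 (ratio 0.710, 0.598 to 0.829), and the ratios of CON and SUS, 0.865 and 0.894, had intervals that included 1. The ribosomal protein percentage was again higher at either end than in the middle, at 7.95%, 6.61% and 8.36% for the dorsal, middle and ventral bins of CON, 6.95%, 5.92% and 7.98% for RES and 7.59%, 6.28% and 7.90% for SUS.

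**Figure D3:**
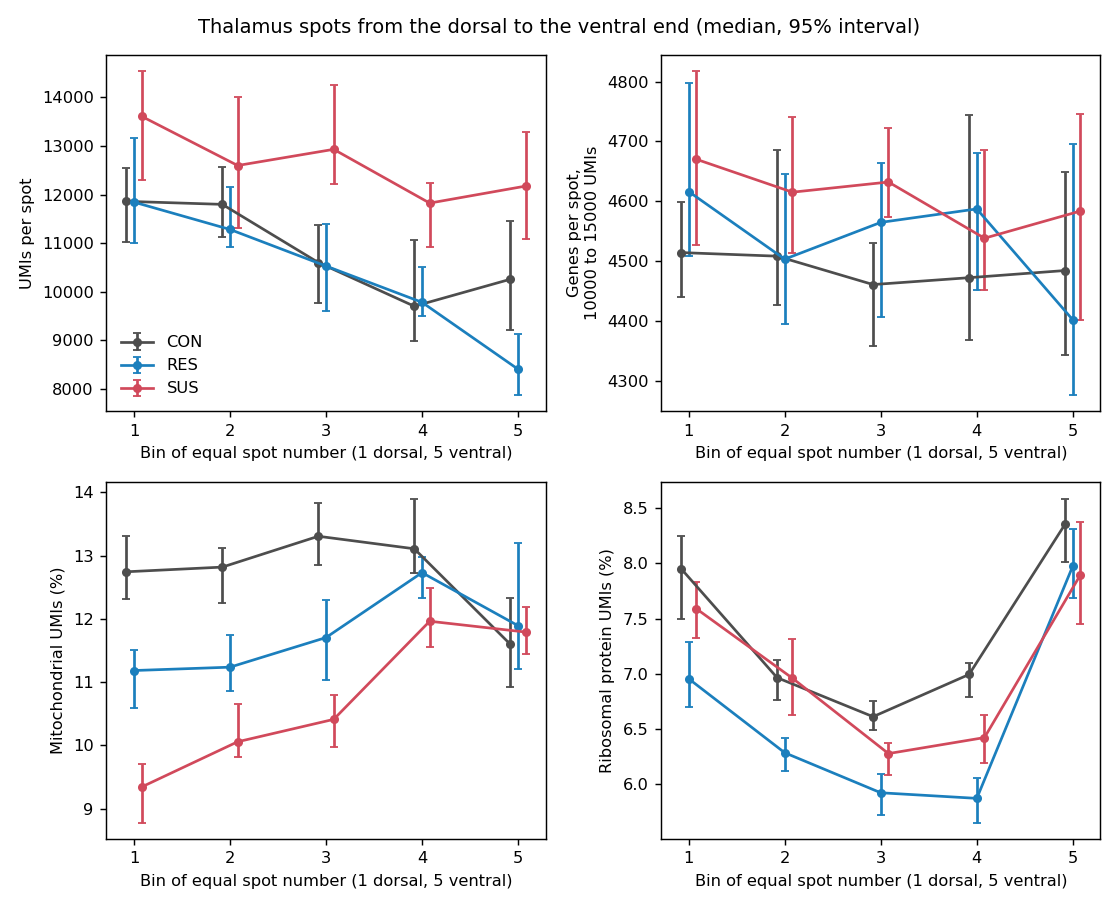
The same 4 quantities as medians with 95% intervals over spots in 5 bins of equal spot number from the dorsal (1) to the ventral (5) end of the thalamus. The mitochondrial percentages of the 3 sections lie apart in the dorsal bin, at 12.7%, 11.2% and 9.34%, and between 11.6% and 11.9% in the ventral bin.

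Most of the deepest TH spots lay near the medial side in each section. Above 20000 UMIs lay 21 TH spots in CON (14 of them in the medial bin), 19 in RES (17) and 48 in SUS (33). Above 30000 UMIs lay 0, 2 and 10 spots, and the 12 in RES and SUS were all in the medial bin. The 10 deepest TH spots of each section all had a mitochondrial percentage below the section's TH median, and 6 of 10 in CON, 8 of 10 in RES and 10 of 10 in SUS lay within 250 µm of the medial side. The deepest spot of CON, with 26793 UMIs, lay 900 µm from the medial side and 2598 µm from the dorsal end. The deepest spot of all, with 50522 UMIs and 8335 genes in SUS, lay 200 µm from the medial side and 346 µm from the dorsal end and had 3.33% mitochondrial transcripts. The medial bin was not alike from dorsal to ventral. Its dorsal spots had medians of 13632.5, 15821.5 and 20431 UMIs for CON, RES and SUS, and its ventral spots 15404, 9607 and 14853.5, so that RES and SUS were deeper dorsally and CON was not. The mitochondrial percentage of the dorsal spots was 10.7%, 9.05% and 8.50% and that of the ventral spots 9.73%, 10.1% and 11.8%. TH spots touching D3V, of which there were 6, 7 and 8, had medians of 18331.5, 14506 and 23941.5 UMIs and 7.33%, 7.17% and 6.24% mitochondrial transcripts.

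**Figure D4:**
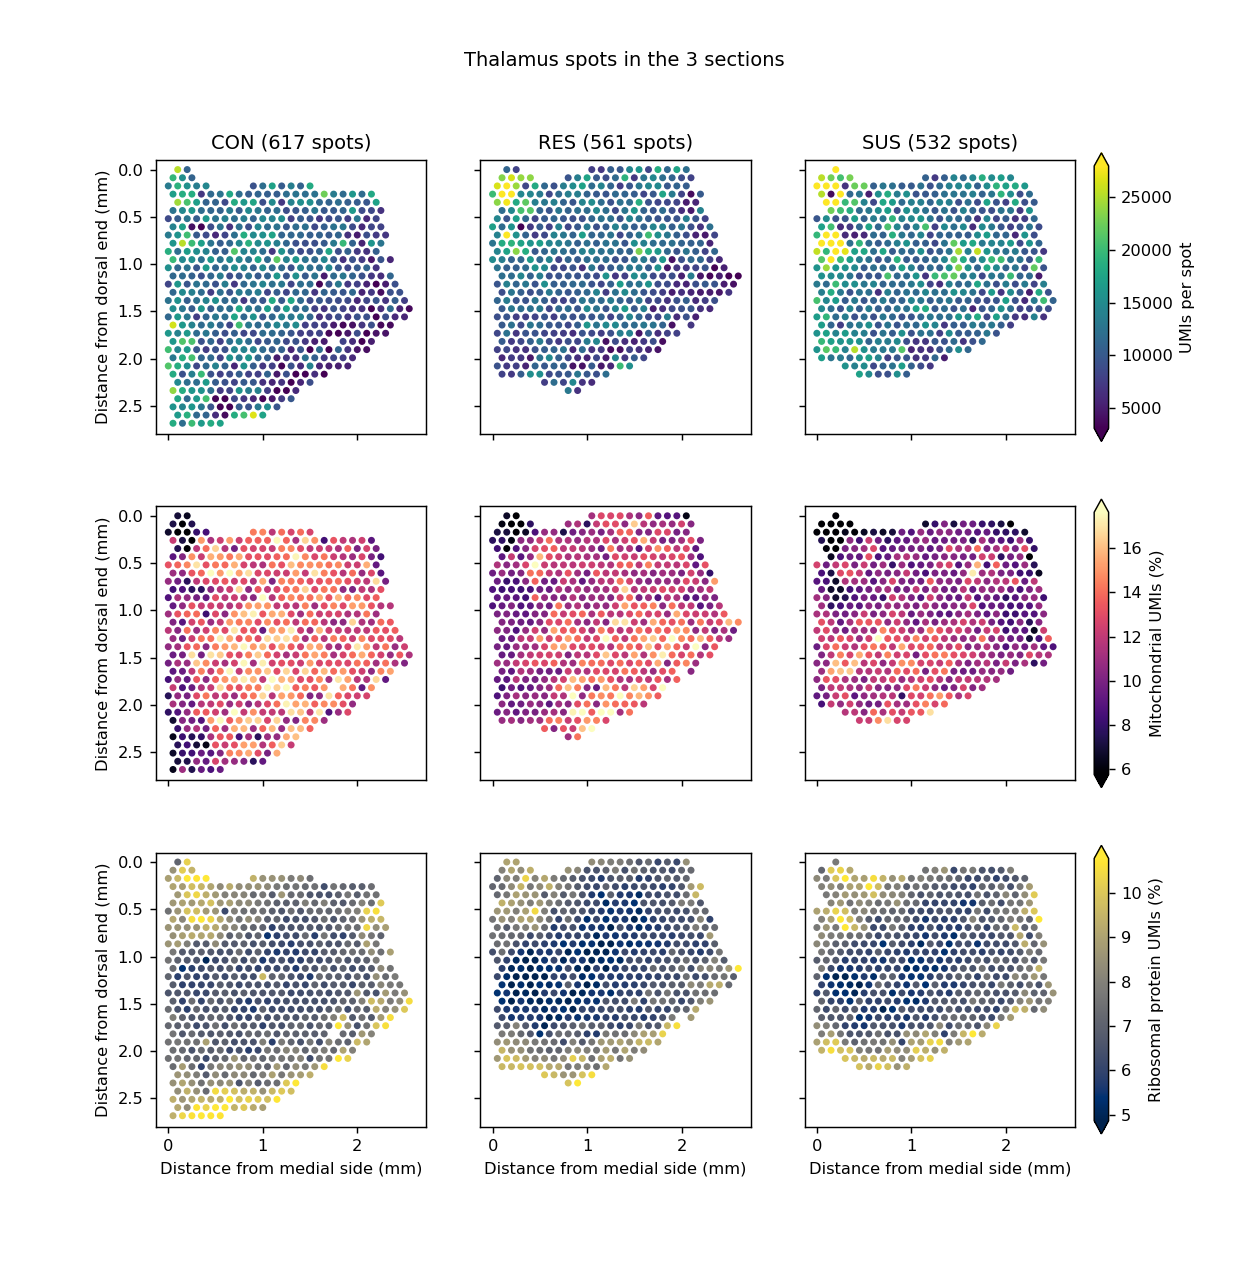
Each thalamus spot of CON (617), RES (561) and SUS (532) at its distance from the medial side (horizontal, mm) and from the dorsal end (vertical, mm), coloured by UMIs per spot, mitochondrial percentage and ribosomal protein percentage, with colour ranges shared by the sections and clipped at the extremes. Deep spots of low mitochondrial percentage gather at the dorsomedial corner in RES and SUS, and the ribosomal protein percentage is higher along the margins than in the middle.

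Border spots of TH were then compared with interior ones. Interior spots, whose 6 adjacent places were all TH, numbered 509, 465 and 441, and the other 108, 96 and 91 were counted as border. These border spots included 41, 28 and 21 that lay next to tissue-covered places the table did not list, mostly on the medial side, where the limit is that of the table and may not be that of the thalamus. The ribosomal protein percentage of border spots was higher by 1.49, 1.67 and 1.86 percentage points (mean 1.68 ± 0.184, SD, n = 3) and the mitochondrial percentage lower by 2.09, 1.03 and 0.750 (mean -1.29 ± 0.705). Both held in 3 of 3 sections, at the smallest exact permutation p of 0.25 (adjusted p = 0.5 over 6 quantities). With border spots counted only where they touched another region, the mean differences were 2.07 and -1.10 percentage points. UMIs did not have a common direction, with log2 ratios of 0.09, -0.15 and 0.13.

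The values of border spots are given next by neighbouring region. Spots touching HY (23, 26 and 28) had the highest ribosomal protein percentages, with medians of 10.1%, 9.57% and 9.39%. Their mitochondrial medians were 10.8%, 13.0% and 12.0% against 13.1%, 11.9% and 10.7% in interior spots, so that in RES and SUS the HY-facing spots lay above the interior, opposite to the border as a whole. From the border the ribosomal protein median fell with each 100 µm step into the thalamus in CON and SUS, to 7.43% and 6.37% at the sixth step, and in RES to 6.73% with small steps up on the way. On the other side of the border, HY spots stood at 10.5%, 9.52% and 9.70% at the first step, close to the TH spots they touched. Over 6 steps into HY the medians stayed between 9.22% and 10.3% in RES and SUS and reached 11.5% in CON. A spot can cover tissue of both regions, and how much of each was not measured here. The same HY-facing spots in SUS had a median of 1.40% red blood cell transcripts (0.285 to 2.34), against 0.295% in interior TH spots of that section, while those of CON had 0.00344% and those of RES 0.0732%.

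Spots touching FB (25, 23 and 18) were shallow in CON and RES, with 6744 and 6602 UMIs, and less so in SUS, with 10461.5. In CON the median rose with each step inward, through 6830, 7329, 7708 and 8457 to 9864 UMIs at the sixth step. Spots touching HIP (23, 21 and 23) had 12470, 12079 and 14505 UMIs, and their mitochondrial percentage was 12.3% in CON, 10.5% in RES and 7.15% in SUS. At 2 steps further in, the SUS median was 9.63% and that of CON 12.6%.

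**Figure D5:**
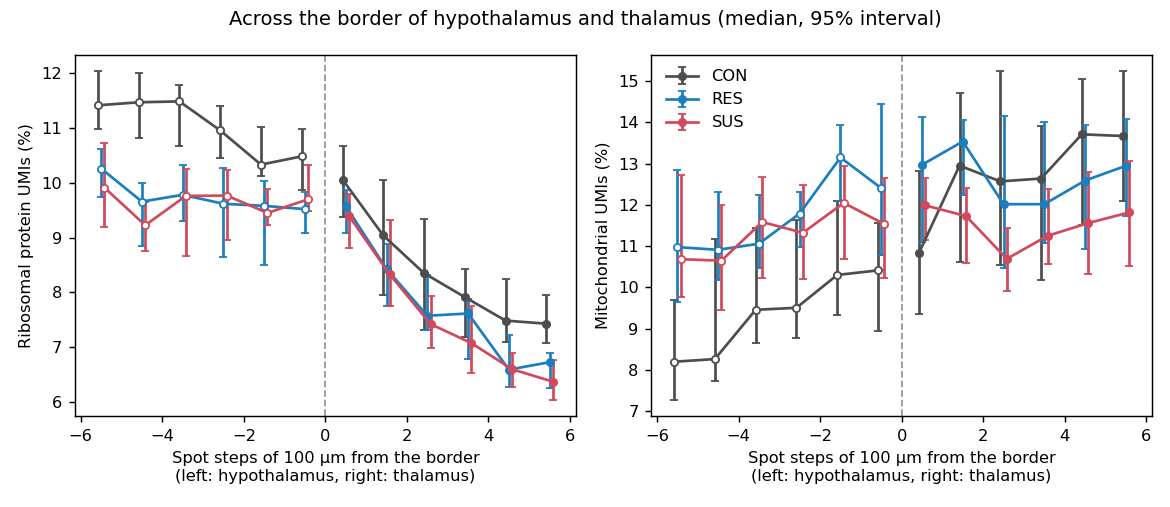
Medians with 95% intervals over spots of the ribosomal protein percentage (first panel) and the mitochondrial percentage (second panel) by number of 100 µm steps from the border of hypothalamus (open points, left of the dashed line) and thalamus (filled points, right). In thalamus the ribosomal protein percentage falls from 10.1%, 9.57% and 9.39% beside the border to 7.43%, 6.73% and 6.37% at the sixth step, while the mitochondrial percentage goes from 10.8%, 13.0% and 12.0% to 13.7%, 12.9% and 11.8% between the same steps.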

How the data were processed

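Per the study's methods, Visium reads went through ST Pipeline, were aligned to mm10 (mouse), and the authors loaded the counts in Seurat, removing genes with under 10 reads or in fewer than 2 spots and spots under 200 UMIs. The submitters' processing notes name bcl2fastq, cutadapt and Space Ranger 1.0.0. The deposited table gave, for each retained spot, counts of UMIs and of genes, and percent values of mitochondrial, ribosomal protein and red blood cell transcripts computed by the authors. Which genes entered each percent value, and whether the UMI and gene counts include mitochondrial and red blood cell genes, is not given in the sources used here. These values rest on another total per spot than the UMI count, so they were compared as percentages only. The deposited position files gave each spot's row and column.

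Spots were joined to positions by barcode and section, and sections to CON, RES and SUS by the table's sample column. The lateral direction was the slide axis toward the auditory and temporal cortex spots, with neighbouring spots 100 µm apart. Medians carry 95% order-statistic intervals over spots, and intervals of ratios and differences combine the outer bounds of both medians. Shares carry exact binomial (Clopper-Pearson) 95% intervals, and intervals and limits cover counting error only. All of them treat spots as independent. Region, medial to lateral and border comparisons took 1 value per section and an exact two-sided sign-flip permutation test over 3 sections, with Benjamini-Hochberg adjustment over 36, 6 and 6 comparisons. Calculations used pandas 2.3.3, numpy 2.4.6 and scipy 1.17.1 under Python 3.11.15, and plots matplotlib 3.10.9. The median interval, the slide axes, the interior label and the lateral to medial ratio of binned UMIs were tested on simulated spots. The other steps were not. Alternatives were interior spots, spots of at least 1000 UMIs, a UMI window, means, other UMI bins, other positions and bins, and leaving out each section. The dorsal to ventral comparison, the comparison without the medial bin or within the ventral spots, the UMI window for medial to lateral percentages, and the 1000-UMI bins for regions and for medial to lateral were added after the data were seen. The regions, quantities and tests were chosen with earlier results of these data known. Image scale factors were not used. Genes were not named, because the table holds no count per gene.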

Additional observations from a re-analysis of the deposited data

Results flagged for a closer look

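The change from CON differed in direction between TH and other regions of the same sections, with intervals over spots on opposite sides of no change, and the difference was not tested because each condition has 1 section. For UMIs, SUS over CON was 1.13 in TH against 0.897 in Isocortex, 0.578 in AMY, 0.568 in OLF and 0.604 in CNU. For genes it was 1.09 in TH against 0.933 in Isocortex, 0.728 in AMY, 0.728 in OLF and 0.729 in CNU. For genes at 10000 to 15000 UMIs it was 1.03 in TH against 0.973 in Isocortex and 0.944 in AMY. The AMY spots of SUS in that window were shallower than those of CON, at medians of 11141 and 12414.5 UMIs. The ratio of SUS to CON, taken in each bin of 1000 UMIs and then averaged, was 1.003 in TH, 0.991 in Isocortex and 0.988 in AMY. For TH the value given elsewhere is another statistic, the ratio of the mean bin medians.

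The mitochondrial percentage of TH differed from CON by -1.10 percentage points in RES and -2.21 in SUS, whereas that of HY, which adjoins TH, differed by 1.23 in RES and 1.79 in SUS. In the 5 forebrain regions the difference had the sign of TH in both sections and was larger than in TH for SUS, from -3.92 in Isocortex to -2.44 in AMY. At 10000 to 15000 UMIs the HY medians were 10.5% for CON, 10.4% for RES and 12.0% for SUS, so the opposite direction of RES was not present at like depth. The ribosomal protein percentage of SUS minus CON was -0.336 in TH and 0.700 in HIP, and 4 of the 6 other regions had the sign of TH. These values too come from 1 section per condition and were not tested.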

How the results depend on the processing

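Of 424 alternative values, 47 turned the sign of a mean over sections and 11 moved a section ratio or difference beyond its interval, of which 3 turned a RES value whose interval included 1 to the other side of it. The exact sign-flip test cannot go below 0.25 with 3 sections, so these counts concern sizes and signs alone. The lower mitochondrial percentage of TH in RES and SUS, the excess of TH over the 5 forebrain regions, the deficit of ribosomal protein transcripts against HY, CNU and HIP, the loss of UMIs from medial to lateral, and the border differences in ribosomal protein and mitochondrial percentage kept the sign of their mean under every alternative run for them. They also kept it in each section, leaving out sections aside, except with means over spots for the mitochondrial percentage against OLF in RES and SUS (-0.0222 and -0.388) and ribosomal protein against HIP in CON (0.204). Among section values, division by the section median gave UMIs of 1.22 (RES) and 1.33 (SUS) and genes of 1.13 and 1.20 times CON. Means over spots gave 1.20 for UMIs in SUS and red blood cell differences of 0.0976 (RES) and 0.754 (SUS) percentage points. At 10000 to 15000 UMIs the mitochondrial difference of RES was -1.59. Genes at 8000 to 12000 UMIs gave 0.9902 (RES) and 1.004 (SUS), and equal weight of 1000-UMI bins gave 1.005 (SUS).

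For TH against other regions (log2 ratios for UMIs and genes, percentage points otherwise), interior spots turned genes at like depth to -0.00051 against HY and -0.0044 against OLF, and red blood cell transcripts to 0.00513 against CNU. The 1000-UMI bins turned genes at like depth to -0.0092 (HIP), -0.028 (AMY), -0.033 (OLF) and -0.021 (CNU), so their order in gene number depended on how depth was matched. Means over spots turned red blood cell transcripts to -0.0562 (HY), -0.0246 (Isocortex), -0.0839 (OLF) and 0.0427 (CNU), ribosomal protein to 0.0326 (Isocortex) and 0.0711 (AMY), HIP to -0.19 for UMIs and -0.059 for genes, and OLF to -0.012 for genes at like depth. At 10000 to 15000 UMIs the red blood cell difference from HY was -0.00786. Leaving out the medial bin of TH turned HIP to -0.0059 for UMIs and -0.0058 for genes, and red blood cell transcripts to 0.00663 against CNU. Leaving out each section in turn, genes at like depth ran from -0.0052 to 0.030 (HY), -0.011 to 0.051 (AMY), -0.014 to 0.050 (OLF) and -0.013 to 0.043 (CNU), genes from -0.011 to 0.079 (HIP) and -0.026 to 0.41 (OLF), UMIs from -0.0043 to 0.71 (OLF), red blood cell transcripts from -0.00205 to 0.0356 (HY), -0.0133 to 0.0171 (OLF) and -0.00318 to 0.00130 (CNU), and ribosomal protein from -0.322 to 0.0173 (Isocortex) and -0.289 to 0.0207 (AMY).

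For border against interior, counting only spots next to another region gave -0.10 for UMIs, -0.060 for genes and 0.00520 for red blood cell transcripts. Leaving out sections gave -0.030 to 0.11 for UMIs and -0.020 to 0.060 for genes. For lateral against medial, the mitochondrial mean became -0.134 at 10000 to 15000 UMIs, through SUS. The ribosomal protein mean became 0.0888 by relative position in each row, 0.129 with 5 bins of equal width, 0.0581 at 10000 to 15000 UMIs and 0.845 among the ventral spots, where the sections gave 0.574, 1.23 and 0.733. The red blood cell mean ran from -0.00959 to 0.0427 without 1 section. The causes were not tested. No paired analysis between conditions was possible because each condition has 1 section.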

Other observations

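At slide places that carried a TH spot in both sections of a pair, the UMIs of the sections were weakly related, with rho of 0.360 for CON and RES (500 places), 0.312 for CON and SUS (351) and 0.202 for RES and SUS (393). The same place lies at a different point of the thalamus in each section, and medial places were deeper in all 3.

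The shallowest TH spot of all had 408 UMIs and 347 genes and lay in CON, 550 µm from the medial side and 2511 µm from the dorsal end, with no other region next to it, and the next, with 1249 UMIs, lay 600 µm and 2425 µm from the same sides. The shallowest spot of SUS, with 3684 UMIs and 4.28% mitochondrial transcripts, lay 150 µm from the medial side and 259.8 µm from the dorsal end. Among TH spots of SUS, those with more than 1% red blood cell transcripts made up between 15.9% (17 of 107) and 26.4% (28 of 106) of the 5 bins from dorsal to ventral, and their share was highest in the ventral bin.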
